A study of Rattus norvegicus with 30 samples.

Results

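Rat hepatocytes exposed to the higher of 2 concentrations of diisononyl phthalate (DINP) were compared with cells exposed to the lower one, with the exposure times pooled. The comparison holds the 10 arrays titled 100 mM and the 10 arrays titled 25 mM, 20 of the 30 arrays of the series, chosen by the concentration in the sample titles. The 4 groups, of 5 arrays each, are DINP 100 mM for 24 h, DINP 25 mM for 24 h, DINP 100 mM for 48 h and DINP 25 mM for 48 h. The other 10 arrays, of cells given 1% DMSO alone for the same times, serve as the vehicle level here. All cells were hepatocytes of male Sprague Dawley rats, bought frozen, plated on collagen under Matrigel and dosed on day 3 of culture, and the DINP solutions were made up in DMSO too. The labels give neither the age of the rats nor the number of donors. Each array is 1 well of its own culture, so a p-value here reflects well-to-well spread. Concentrations are written as the labels have them, and the unit mM was not checked.

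DINP is a phthalate ester used to soften plastics. In rodent liver, phthalates of this kind activate the nuclear receptor PPARα, which raises enzymes that oxidise fatty acids in peroxisomes and mitochondria and ω-hydroxylases of the Cyp4a family. Cholesterol synthesis is controlled by the transcription factor SREBP2, which is released when sterol in the endoplasmic reticulum falls. Ccn2, a matricellular protein, is a standard target of the co-activator YAP, which binds DNA through TEAD factors. The series was set up as a dose response and time course, and the comparison of its 2 doses shows how far the higher one went beyond the lower.

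The cells had the transcripts of hepatocytes at both doses. All 15 hepatocyte markers lay above the mark used here for a brighter gene, a mean of 7.93 in log2 signal in at least 1 dose group. Albumin (Alb) averaged 16.73 at 100 mM and 16.79 at 25 mM. Of the markers of other liver cells, 10 of 15 stellate and fibroblast, 11 of 14 Kupffer and macrophage, 7 of 12 endothelial, 5 of 9 cholangiocyte and 3 of 12 lymphocyte and erythroid genes passed that mark. The summed signal of the stellate and fibroblast markers ran between 22472.5 and 32718.7 at 100 mM and between 19775.8 and 30467.2 at 25 mM. That of the Kupffer and macrophage markers ran between 30677.9 and 37331.7 at 100 mM and between 31817.0 and 38713.0 at 25 mM. Such sums weigh the brightest members most. These were Lox and Vim among the stellate and fibroblast markers, and Cd14 and Lyz2 among the Kupffer and macrophage markers. In whole cultures, fewer cells of a type and less RNA per cell cannot be told apart. The median log2 signal of the 20 arrays lay between 8.5003 and 8.7653, and its mean was 0.06 lower at 100 mM than at 25 mM (exact permutation test within times, 2-sided, p = 0.0764, adjusted p = 0.458 over 6 measures, n = 10 each). None of the other 5 measures, which are spiked-in and ribosomal RNA and the 3′ to 5′ ratios of Gapdh and β-actin, had an exact permutation p under 0.436.

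No transcript passed the test of the pooled dose difference. Of 31042 probe sets, 0 were called higher at 100 mM (0.0%) and 0 lower (0.0%) at an adjusted p under 0.05, with limma on log2(signal + 16) and dose and time as terms. The smallest adjusted p was 0.0953. At an unadjusted p under 0.05, 785 probe sets were higher at 100 mM (2.53%) and 1247 lower (4.02%), in all 6.55%, where 5% would be past it with no difference anywhere. The split between higher and lower rests on the scaling. With each array centred on its median, 1757 were higher and 614 lower, and 2 probe sets, of Ccn2 and Sult6b2, were called higher. Values below are on the log2(signal + 16) scale as deposited, and every error after ± beside a difference is limma's standard error.

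The size of any dose difference was bounded for most genes. In the 10807 brighter genes the median half-width of the 95% interval was 0.172. The interval lay wholly within 1 log2 unit on either side of 0, a 2-fold difference, for 97.9% of them, and within 0.5, a 1.41-fold difference, for 84.8%. Estimates beyond 0.5 in size were found for 141 genes and beyond 1 for 9. Against the vehicle, with times averaged, 1716 probe sets were called higher (5.53%) and 2601 lower (8.38%) at 100 mM, and 1778 higher (5.73%) and 2729 lower (8.79%) at 25 mM. These comparisons share the vehicle arrays.

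Ccn2 had one of the 3 smallest p-values. At 24 h its log2 signal was 11.12, 10.91, 11.06, 11.04 and 11.35 at 100 mM, against 10.50, 10.31, 10.15, 10.66 and 10.46 at 25 mM. At 48 h it was 11.66, 11.65, 11.37, 11.39 and 11.22 at 100 mM, against 11.24, 11.31, 11.10, 11.29 and 10.96 at 25 mM. Every 100 mM array lay above every 25 mM array at 24 h, and the doses overlapped at 48 h. The pooled difference was 0.48 ± 0.08 (95% interval 0.307 to 0.653, a 1.40-fold higher level at 100 mM, adjusted p = 0.0967). At 24 h alone the difference was 0.68 ± 0.11 and was called (limma adjusted p = 0.0409). That call was lost with median centring and without a variance trend, and it was kept in 7 of the 20 fits that each lacked 1 array. At 48 h it was 0.28 ± 0.11. Both doses lay far below the vehicle, by -2.17 ± 0.07 at 100 mM and -2.65 ± 0.07 at 25 mM.

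The sequence around the start of Ccn2 is shown because this gene has the letters of the TEAD element, GGAATG, several times close to its start. The 300 bases are those of RefSeq's GRCr8 assembly, chr1:22624565-22624864 on the minus strand, 250 before and 50 after the start of the gene, read 5′ to 3′ along the gene, with the element in capitals.
Ccn2: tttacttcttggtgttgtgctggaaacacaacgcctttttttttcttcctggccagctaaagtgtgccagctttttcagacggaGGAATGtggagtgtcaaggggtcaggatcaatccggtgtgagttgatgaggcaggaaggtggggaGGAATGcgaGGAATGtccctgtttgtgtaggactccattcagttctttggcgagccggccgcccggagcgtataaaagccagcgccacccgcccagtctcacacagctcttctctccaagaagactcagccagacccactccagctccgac
The element occurs 3 times, beginning 166, 101 and 92 bases before the start, all on the gene's own strand. On either strand, GGAATG is in 14.19% of the 33469 promoter windows of that table. A match of letters is not a bound site.

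Sult6b2, a member of the cytosolic sulfotransferase family, had the smallest p-value. At 24 h its log2 signal was 11.01, 11.15, 11.28, 10.99 and 11.05 at 100 mM, against 10.72, 10.64, 10.67, 10.55 and 10.77 at 25 mM, with no overlap. At 48 h it was 11.55, 11.28, 11.09, 11.24 and 11.38 at 100 mM, against 10.79, 11.26, 10.93, 10.95 and 10.93 at 25 mM. The highest 25 mM array there, replicate 2, reached into the range of the 100 mM arrays. The pooled difference was 0.38 ± 0.06 (95% interval 0.252 to 0.512, adjusted p = 0.0953). Against the vehicle it was lower by -0.72 ± 0.06 at 100 mM and by -1.10 ± 0.06 at 25 mM.

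Cryab, which encodes the small heat shock protein αB-crystallin, and Rcan1, which encodes an inhibitor of the phosphatase calcineurin, came next. Cryab ranged between 12.39 and 12.60 at 100 mM and between 11.97 and 12.42 at 25 mM after 24 h. After 48 h it ranged between 12.50 and 12.90 at 100 mM and between 12.19 and 12.58 at 25 mM. The ranges overlapped at both times, and the pooled difference was 0.33 ± 0.06 (adjusted p = 0.0967). Rcan1 differed by 0.31 ± 0.06 (adjusted p = 0.118), with 0.33 ± 0.08 at 24 h and 0.30 ± 0.08 at 48 h. Against the vehicle, Cryab stood at -0.15 ± 0.06 at 100 mM (adjusted p = 0.15) and -0.48 ± 0.06 at 25 mM, and Rcan1 at -0.58 ± 0.08 at 100 mM and -0.89 ± 0.08 at 25 mM.

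**Figure D1:**
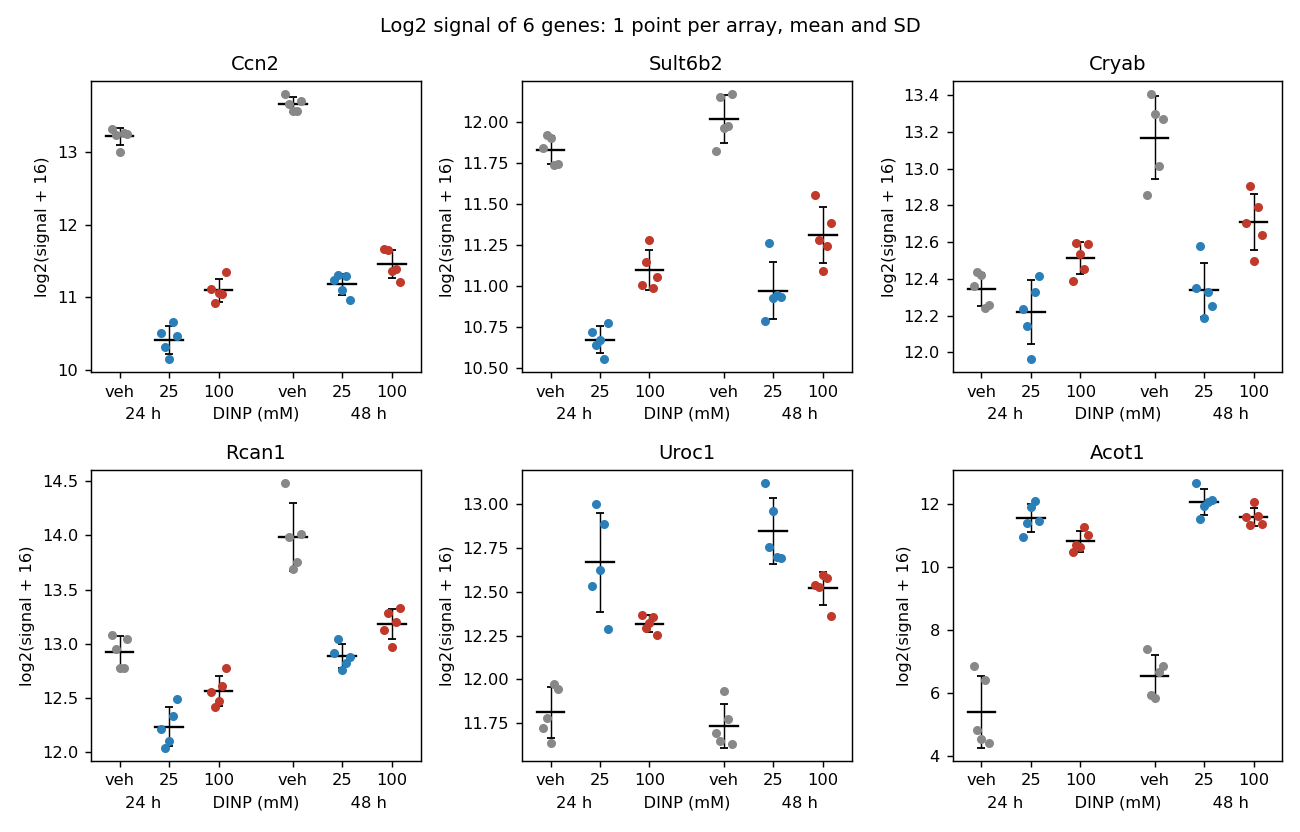
Log2 signal of 6 genes on each of the 30 arrays (y axis), by DINP concentration (x axis, vehicle, 25 and 100 mM) at 24 h and 48 h, with 1 point per array and bars for the mean and SD of 5 arrays. The 100 mM arrays of Ccn2 lie above the 25 mM arrays at 24 h and below the vehicle arrays at both times, and the mean of Acot1 is lower at 100 mM than at 25 mM at both times.

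The calls depended on single arrays. Between 0 and 5 probe sets were called higher over the 20 fits that each lacked 1 array. Without DINP 100 mM 48 h replicate 3 the number was 5 (Ccn2, Cryab, Rcan1, Sult6b2 and Ubd), without DINP 25 mM 24 h replicate 5 it was 4 (Cryab, Erg28, Rcan1 and Sult6b2), and without DINP 25 mM 48 h replicate 2 it was 3 (Ccn2, Cryab and Sult6b2). Without DINP 100 mM 48 h replicate 5 it was 1 (Ccn2), and it was 0 in the other 16 fits.

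Erg28 is a membrane protein of the endoplasmic reticulum that in yeast tethers enzymes of sterol synthesis. It had the fifth smallest p among the genes that were higher at 100 mM, and it was not on the list of cholesterol genes used here. At 48 h its log2 signal was 14.22, 14.28, 14.18, 14.22 and 14.41 at 100 mM, against 14.00, 14.07, 14.03, 14.03 and 14.03 at 25 mM, with no overlap. At 24 h the doses overlapped. The pooled difference was 0.19 ± 0.04 (adjusted p = 0.325).

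Genes of cholesterol synthesis and uptake were the list with the most members past the unadjusted threshold. Of its 20 members, all of them brighter genes, 0 were called, and 15 were higher and 0 lower at 100 mM at an unadjusted p under 0.05. Over all 14217 genes the shares were 3.34% higher and 4.04% lower. The median difference of the list was 0.14, against -0.01 over all genes, and 18 of the 20 differences were positive. The list was chosen with earlier results of these data known, so its count describes these arrays and is not independent evidence. The count lay between 13 and 15 over the fits that lacked 1 array, and between 12 and 15 under the other settings.

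**Figure D2:**
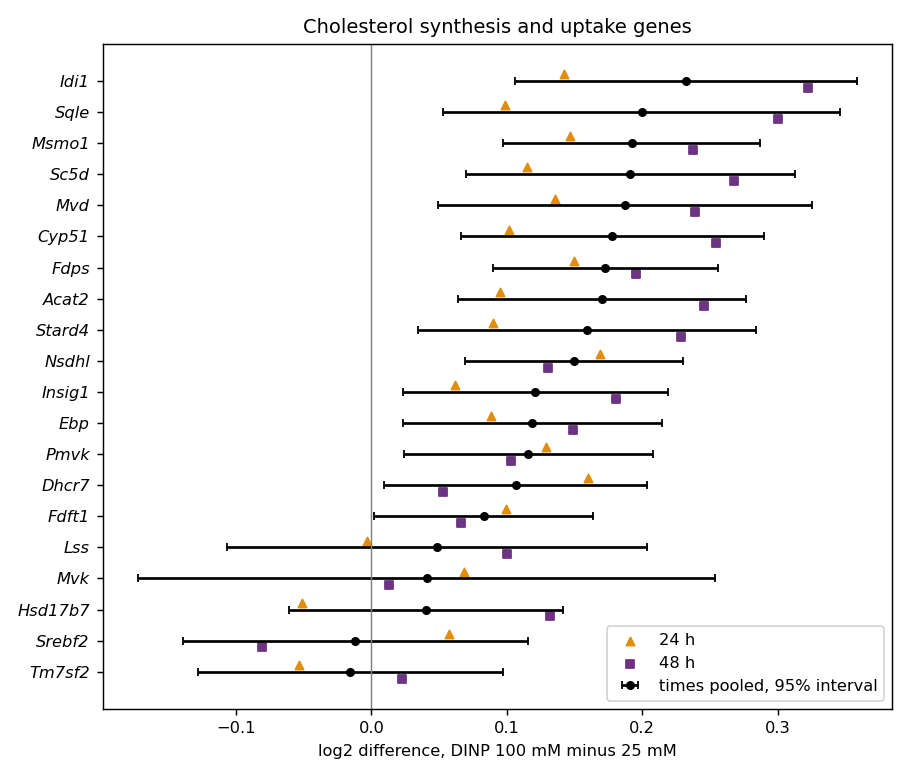
Log2 difference of 100 mM minus 25 mM (x axis) for the 20 genes of cholesterol synthesis and uptake (rows), with the times pooled (black, 95% interval, 10 arrays against 10) and at 24 h and 48 h alone. The pooled intervals of 15 genes lie above 0 and those of the other 5 include it.

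The members are spread along the pathway. In the early steps that make isoprenoid units, Acat2, which joins acetyl-CoA units, differed by 0.17 ± 0.05, the kinase Pmvk by 0.12 ± 0.04, the decarboxylase Mvd by 0.19 ± 0.07 and the isomerase Idi1 by 0.23 ± 0.06. Fdps, which makes farnesyl diphosphate, differed by 0.17 ± 0.04, and Fdft1, which makes squalene, by 0.08 ± 0.04. Squalene epoxidase (Sqle) differed by 0.20 ± 0.07. In the later steps on the sterol ring, the differences were 0.18 ± 0.05 for the demethylase Cyp51, 0.19 ± 0.05 for the methyl sterol oxidase Msmo1, 0.15 ± 0.04 for the dehydrogenase Nsdhl and 0.12 ± 0.05 for the isomerase Ebp. For the desaturase Sc5d and the reductase Dhcr7 they were 0.19 ± 0.06 and 0.11 ± 0.05. Stard4, a sterol carrier, differed by 0.16 ± 0.06 and Insig1, which holds the SREBP complex in the endoplasmic reticulum, by 0.12 ± 0.05. The adjusted p of each was 0.457 or more. These members were named after their values were seen.

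The 5 members not past the unadjusted threshold were Lss (0.05), Mvk (0.04), Hsd17b7 (0.04), Srebf2 (-0.01) and Tm7sf2 (-0.02). These are values of the brightest probe set. A dimmer probe set of Lss, at a mean of 7.46 over the 20 arrays, differed by 0.99 ± 0.28. Srebf2 encodes SREBP2 itself. With median centring, the differences of Srebf2 and Tm7sf2 turned positive, at 0.04 each.

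Idi1 and Fdps show the levels behind these differences. At 24 h the log2 signal of Fdps was 15.35, 15.24, 15.34, 15.25 and 15.27 at 100 mM, against 15.14, 15.20, 15.02, 15.16 and 15.18 at 25 mM. At 48 h it was 15.86, 15.84, 15.50, 15.74 and 15.72 at 100 mM, against 15.55, 15.64, 15.49, 15.54 and 15.45 at 25 mM. The doses did not overlap at 24 h and overlapped at 48 h. Idi1 had 13.72, 13.63, 13.56, 13.48 and 13.48 at 100 mM and 24 h, against 13.54, 13.45, 13.36, 13.20 and 13.61 at 25 mM. At 48 h Idi1 had 13.73, 13.73, 13.55, 13.54 and 13.81 at 100 mM, against 13.19, 13.56, 13.12, 13.46 and 13.40 at 25 mM. The ranges of Idi1 overlapped at both times.

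Averaged over the 20 members, the log2 signal of an array was 12.801 ± 0.036 at 100 mM and 12.712 ± 0.044 at 25 mM after 24 h (SD, n = 5 each). The lowest array at 100 mM, at 12.748, lay just above the highest at 25 mM, at 12.7445. After 48 h the average was 13.021 ± 0.088 at 100 mM and 12.863 ± 0.085 at 25 mM, and the arrays overlapped. The 48 h and 24 h differences come from different arrays. At 48 h, 19 of the 20 member differences were positive and 12 were higher at an unadjusted p under 0.05, where 3.05% of all genes were. At 24 h, 17 were positive and 4 were higher, where 2.17% of all genes were. Whether the difference of this list differed between the times was not tested.

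Against the vehicle, the cholesterol list had a small median difference at both doses, and some members differed by more. The median difference from the vehicle was 0.02 at 100 mM and -0.11 at 25 mM. At 100 mM, 3 members were called higher and 5 lower, and at 25 mM 1 was called higher and 7 lower, where over all genes 9.09% and 10.7% were called higher and lower at 100 mM and 9.24% and 11.6% at 25 mM. Idi1 was lower than in the vehicle by -0.20 ± 0.06 at 100 mM and by -0.43 ± 0.06 at 25 mM. Sqle was lower by -0.48 ± 0.08 at 100 mM and by -0.68 ± 0.08 at 25 mM. Fdps, at 0.06 ± 0.05 at 100 mM and -0.11 ± 0.05 at 25 mM, was called at neither dose. These values share the vehicle arrays between doses and the treated arrays with the dose difference.

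The promoters of 3 members are shown because many genes of this pathway have the CCAAT box, which the factor NF-Y reads beside SREBP2. The sequences are from RefSeq's GRCr8 assembly, 250 bases before to 50 after the start of each gene, read 5′ to 3′ along the gene, with CCAAT or, for the opposite strand, ATTGG in capitals. Fdps is at chr2:176804767-176805066 on the minus strand, Idi1 at chr17:66547475-66547774 on the minus strand and Msmo1 at chr16:29746863-29747162 on the plus strand.
Fdps: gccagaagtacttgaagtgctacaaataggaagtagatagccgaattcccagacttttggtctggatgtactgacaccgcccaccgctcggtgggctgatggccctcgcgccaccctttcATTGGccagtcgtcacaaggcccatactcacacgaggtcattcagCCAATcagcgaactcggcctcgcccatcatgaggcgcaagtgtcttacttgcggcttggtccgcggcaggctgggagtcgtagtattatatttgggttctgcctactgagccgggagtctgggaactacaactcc
Idi1: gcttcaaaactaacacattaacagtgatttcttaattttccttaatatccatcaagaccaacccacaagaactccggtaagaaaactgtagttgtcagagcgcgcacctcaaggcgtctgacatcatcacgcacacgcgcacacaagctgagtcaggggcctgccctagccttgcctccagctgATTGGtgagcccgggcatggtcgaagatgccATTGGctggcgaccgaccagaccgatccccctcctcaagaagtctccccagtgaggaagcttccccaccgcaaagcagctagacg
Msmo1: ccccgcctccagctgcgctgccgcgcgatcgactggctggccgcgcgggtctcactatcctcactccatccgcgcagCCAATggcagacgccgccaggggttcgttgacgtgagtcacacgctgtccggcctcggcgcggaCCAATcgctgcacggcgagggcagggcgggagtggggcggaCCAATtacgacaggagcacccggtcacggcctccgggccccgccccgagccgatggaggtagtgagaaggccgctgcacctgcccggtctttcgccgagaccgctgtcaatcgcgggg
The matches begin 130 and 85 bases before the start in Fdps, 66 and 35 in Idi1, and 173, 109 and 68 in Msmo1. Of the 16 members with a window in that table, 13 (81.25%) held CCAAT on either strand, against 37.49% of all 33469 windows. The sterol regulatory element written TCACNCCAC was in 0 of the 16 windows and in 1.12% of all windows, which says only that these letters are not in these stretches. The GGAATG letters shown for Ccn2 were in 0 of the 16.

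In the list of actin, YAP and matrix genes, 5 of 31 members were higher and 0 lower at an unadjusted p under 0.05, where 3.34% and 4.04% of all genes were, and the list's median difference was 0.05. Beside Ccn2 these were the calcium-binding protein S100a6 (0.26 ± 0.08), the membrane-binding annexin Anxa2 (0.12 ± 0.04) and the tropomyosins Tpm4 (0.13 ± 0.06) and Tpm1 (0.11 ± 0.05), named after their values were seen. The count was 9 with median centring and 3 without a trend of variance on signal. It was 8 without DINP 100 mM 24 h replicate 1 and 3 without DINP 25 mM 48 h replicate 3. Against the vehicle, 0 members of the list were called higher and 13 lower at 100 mM, and 0 higher and 14 lower at 25 mM, where 9.09% and 9.24% of all genes were higher and 10.7% and 11.6% lower. The summed signal of the stellate and fibroblast markers ran between 22472.5 and 32718.7 at 100 mM and between 19775.8 and 30467.2 at 25 mM, against between 41717.8 and 48940.1 in the vehicle at 24 h and between 25507.3 and 49080.8 at 48 h. Such a sum weighs its brightest members most. Here these were Lox, at 13.81 at 100 mM, 13.68 at 25 mM and 14.50 in the vehicle, and Vim, at 12.83, 12.58 and 13.63. The mean log2 signal over the 15 markers was 8.78 at 100 mM and 8.79 at 25 mM. In the vehicle it was 8.93 at 24 h and 8.93 at 48 h. Of these 15 markers, 1 was higher and 0 lower between the doses, namely the filament protein Vim (0.25 ± 0.06). The part of such cells in these differences was not tested.

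Genes of fatty acid oxidation were raised by both doses against the vehicle, and none was called between the doses. The 5S rRNA control moved with the vehicle comparison too, at 10.85 ± 0.36 at 100 mM and 10.95 ± 0.28 at 25 mM, against 9.89 ± 0.24 in log2 signal in the vehicle (SD, n = 10 each), and its part in the results was not tested. Of 22 genes of peroxisomal β-oxidation, 18 were called higher than in the vehicle and 1 lower at 100 mM, and likewise 18 and 1 at 25 mM. Over all genes the shares called higher and lower were 9.09% and 10.7% at 100 mM and 9.24% and 11.6% at 25 mM. Their median difference from the vehicle was 0.84 at 100 mM and 0.91 at 25 mM. Between the doses, 0 of the 22 were called, 0 were higher and 4 lower at an unadjusted p under 0.05, against 3.34% and 4.04% of all genes, and the median was -0.03. The 4 were the bifunctional enzyme Ehhadh (-0.23 ± 0.06), the lyase Hacl1 (-0.17 ± 0.04), the thioesterase Acot4 (-0.11 ± 0.05) and the acyltransferase Crot (-0.10 ± 0.04). Median centring, which adds the same 0.06 to every difference, puts that median at 0.03.

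**Figure D3:**
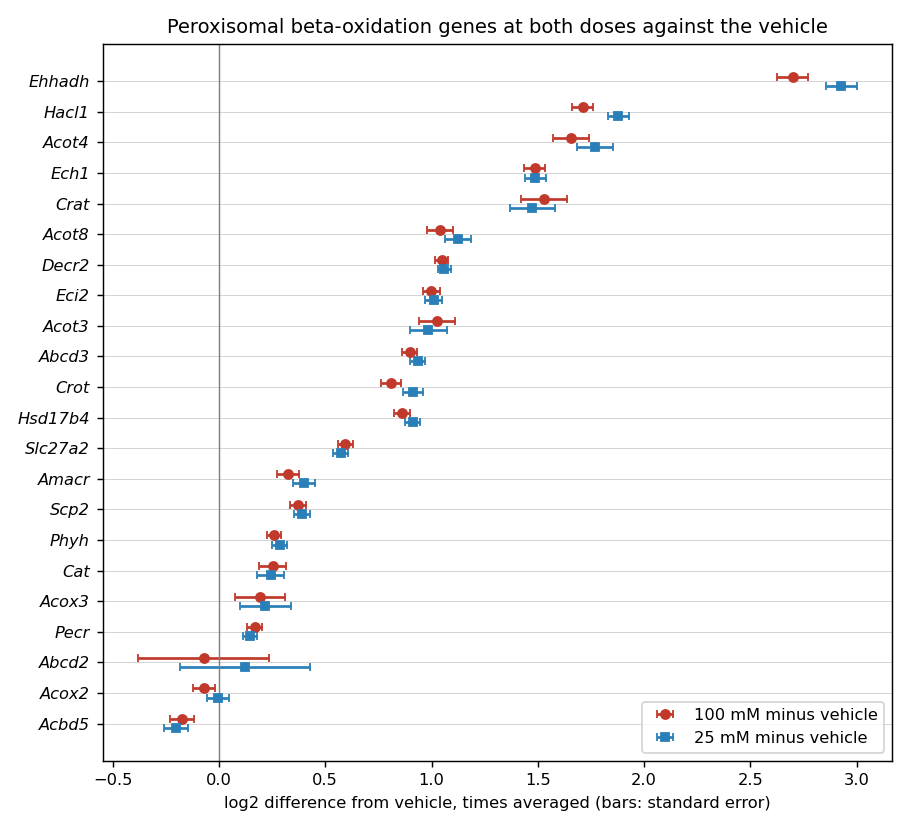
Log2 difference from the vehicle, times averaged (x axis), for the 22 genes of peroxisomal β-oxidation (rows) at 100 mM (red circles) and 25 mM (blue squares), with bars for limma's standard error. Ehhadh stands at 2.70 at 100 mM and 2.93 at 25 mM, and for most other genes the bars of the doses overlap.

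Ehhadh, a peroxisomal enzyme that responds strongly to PPARα in rat liver, had the most negative dose difference of the 22 genes. At 24 h its log2 signal was 13.20, 13.26, 13.08, 13.41 and 13.46 at 100 mM, against 13.43, 13.56, 13.64, 13.56 and 13.69 at 25 mM. At 48 h it was 13.58, 13.49, 13.79, 13.84 and 13.88 at 100 mM, against 13.99, 13.70, 13.98, 13.90 and 13.82 at 25 mM. The doses overlapped at both times, and the adjusted p of the pooled difference was 0.457 with limma. Against the vehicle the estimates were 2.70 ± 0.07 at 100 mM and 2.93 ± 0.07 at 25 mM. For Hacl1, every 100 mM array lay below every 25 mM array at 24 h, and the doses overlapped at 48 h.

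Acot1, a thioesterase that splits acyl-CoA, stood furthest above the vehicle of the fixed genes and had the most negative dose difference among them. At 24 h it had 10.46, 10.70, 10.64, 11.29 and 11.02 at 100 mM, against 10.97, 11.40, 11.93, 12.10 and 11.47 at 25 mM. At 48 h it had 11.58, 11.33, 12.06, 11.64 and 11.37 at 100 mM, against 12.68, 11.53, 11.94, 12.07 and 12.14 at 25 mM. The arrays overlapped at both times, and the pooled difference was -0.61 ± 0.14 (95% interval -0.909 to -0.313, adjusted p = 0.457). Its vehicle mean of 5.97 lay below the mark for a brighter gene in log2 signal. Measured from that mark, its mean was higher than in the vehicle by at least 3.28 at 100 mM and by at least 3.89 at 25 mM. Probes of this family can bind transcripts of the related Acot genes.

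None of the fixed PPARα targets was called between the doses. The ω-hydroxylases Cyp4a1 and Cyp4a3 differed by -0.10 ± 0.07 and -0.05 ± 0.05, and Cyp4a3 turned to 0.01 with median centring. Against the vehicle, Cyp4a1 rose by 2.44 ± 0.08 at 100 mM and by 2.55 ± 0.08 at 25 mM. Pdk4, a kinase that shuts off pyruvate oxidation, differed by -0.09 ± 0.08, and its 2 probe sets had opposite signs. The acyl-CoA synthetase Acsl1 differed by -0.20 ± 0.06, the carnitine palmitoyltransferase Cpt1a by -0.19 ± 0.07 and Fabp1, a carrier of fatty acids in the cytosol, by -0.12 ± 0.05. For the lipase inhibitor Angptl4 the difference was 0.02 ± 0.05 (95% interval -0.078 to 0.108), and for the lipid droplet coat protein Plin2 it was 0.001 (95% interval -0.081 to 0.083). Angptl4 was above the vehicle by 1.61 ± 0.06 at 100 mM and by 1.59 ± 0.06 at 25 mM. The transporter Cd36 and the pantetheinase Vnn1 differed by 0.13 ± 0.11 and 0.09 ± 0.04. Ppara, which encodes the receptor, was below the mark at both doses and gives no usable difference. Only 2 of 3 probe sets of Acsl1 and 1 of 2 of Plin2 had the sign of the brightest.

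The other lipid lists are read against the same 3.34% higher and 4.04% lower over all genes. Of the carnitine shuttle and β-oxidation in mitochondria, 1 of 32 members was higher and 5 were lower at an unadjusted p under 0.05. Of 24 genes of fatty acid uptake, binding and activation, 0 were higher and 2 lower. Of 10 genes of fatty acid ω-hydroxylation, 0 were higher and 2 lower. Of 23 genes of lipid droplets and lipolysis, 0 were higher and 3 lower, among them the lipase inhibitor G0s2 (-0.18 ± 0.06). Of 31 genes of fatty acid and triglyceride synthesis, 5 were higher and 3 lower. The 5 were the citrate lyase Acly (0.14 ± 0.06), the desaturases Scd2 (0.24 ± 0.10) and Fads1 (0.18 ± 0.08), the phosphatase Lpin1 (0.12 ± 0.05) and Thrsp (0.16 ± 0.05), a regulator of lipogenesis. The 3 were genes of glycerol phosphate, Gpd2 (-0.27 ± 0.08), Gpd1 (-0.11 ± 0.04) and Gk (-0.13 ± 0.06). The genes of these counts were named after their values were seen.

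Among drug and bile acid genes, the doses did not overlap for Cyp3a2 at 24 h. This cytochrome P450 had log2 signals of 11.99, 12.53, 12.46, 12.58 and 12.06 at 100 mM, against 12.71, 12.76, 13.02, 12.77 and 12.78 at 25 mM, with no overlap. At 48 h the ranges, 11.86 to 12.62 at 100 mM and 12.27 to 12.97 at 25 mM, overlapped. The pooled difference was -0.40 ± 0.10 (adjusted p = 0.457), and against the vehicle it was higher by 0.57 ± 0.10 at 100 mM and by 0.98 ± 0.10 at 25 mM. Probes of the Cyp3a family can bind related transcripts. In the whole list of CAR and PXR drug metabolism, 1 of 28 members was higher and 4 were lower at an unadjusted p under 0.05. The higher one was Cyp2c11 (0.24 ± 0.09), named after its value was seen. Of 22 genes of bile acid synthesis and transport, 2 were higher and 2 lower. Over all genes the shares were 3.34% higher and 4.04% lower. Cyp7a1, which controls the rate of bile acid synthesis, differed by -0.09 ± 0.14 and the dioxin-responsive Cyp1a1 by -0.04 ± 0.04.

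Uroc1, an enzyme of histidine breakdown, had the smallest p among the genes that were lower at 100 mM. Its log2 signal at 48 h was 12.54, 12.53, 12.60, 12.58 and 12.36 at 100 mM, against 13.12, 12.76, 12.96, 12.70 and 12.69 at 25 mM, with no overlap. At 24 h the doses overlapped, with 12.26 to 12.37 at 100 mM and 12.29 to 13.0021 at 25 mM. The pooled difference was -0.34 ± 0.07 (adjusted p = 0.345), and Uroc1 was above the vehicle by 0.65 ± 0.07 at 100 mM and by 0.99 ± 0.07 at 25 mM. The next 3 genes by the same rule were Gabre, a subunit of the receptor for γ-aminobutyric acid, the membrane protein Sspn (-0.60 ± 0.14) and the carbonic anhydrase Car3 (-0.41 ± 0.10). Only 1 of 2 probe sets of Gabre, 2 of 5 of Sspn and 1 of 2 of Car3 had the sign of the brightest one. Gabre ranged between 5.33 and 7.93 at 100 mM and between 7.36 and 8.73 at 25 mM. It passed the mark for a brighter gene only through its 25 mM mean, so no size of difference is given for it.

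No gene of stress or inflammation was called in the pooled comparison. The list counts that follow are at an unadjusted p under 0.05, which 3.34% of all genes passed higher and 4.04% lower. The oxidative stress gene Hmox1 differed by 0.04 ± 0.05, Nqo1 by -0.09 ± 0.07, the stress transcription factors Ddit3 and Atf3 by 0.10 ± 0.09 and -0.11 ± 0.10, and the secreted stress protein Gdf15 by -0.08 ± 0.12. Of 24 targets of NRF2, 0 were higher and 2 lower at an unadjusted p under 0.05. Of 35 genes that respond to unfolded proteins or ATF4, 3 were higher and 2 lower. In that list 6 of 35 differences were positive at 24 h and 28 of 35 at 48 h, where 49.6% and 45.2% of all genes were, with medians of -0.04 at 24 h and 0.06 at 48 h. The difference between the times was not tested for the list. Of 21 interferon response genes, 0 were higher and 4 lower. Of 31 liver transcription factors and nuclear receptors, 0 were higher and 4 lower, namely Hnf4a (-0.12 ± 0.03), Cebpa (-0.17 ± 0.06), Nr1h4 (-0.15 ± 0.06) and Cebpb (-0.12 ± 0.05), named after their values were seen. The cyclin Ccnd1 differed by -0.04 ± 0.08, and 1 of 35 cell cycle genes was higher and 1 lower. Of 17 heat shock genes 2 were higher and 0 lower, and of 27 genes of the respiratory chain and ATP synthase 0 were higher and 1 lower. Of 36 genes of amino acid catabolism and the urea cycle 2 were higher and 5 lower, and of 30 secreted liver proteins 3 were higher and 1 lower. Among genes named here, some probe sets also differed in sign from the brightest one for Mvk, Stard4, Crot, Scd2, Tpm1, Anxa2, Hnf4a, Cebpa and Ccnd1.

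Genes that DINP lowered at both doses were not called between them either, Ccn2 at 24 h excepted. The decoy receptor Il1r2 differed by 0.21 ± 0.13 between the doses, and stood at -1.34 ± 0.14 from the vehicle at 100 mM and -1.55 ± 0.14 at 25 mM. The metalloreductase Steap4 differed by 0.11 ± 0.07, with -1.55 ± 0.10 at 100 mM and -1.66 ± 0.10 at 25 mM. Acmsd, an enzyme of tryptophan breakdown, differed by 0.08 ± 0.14, with -1.35 ± 0.12 at 100 mM and -1.43 ± 0.12 at 25 mM. Of genes called against the vehicle at neither dose, the hormone gene Fgf21 differed by -0.02 ± 0.09 and Alb by -0.06 ± 0.07.

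**Figure D4:**
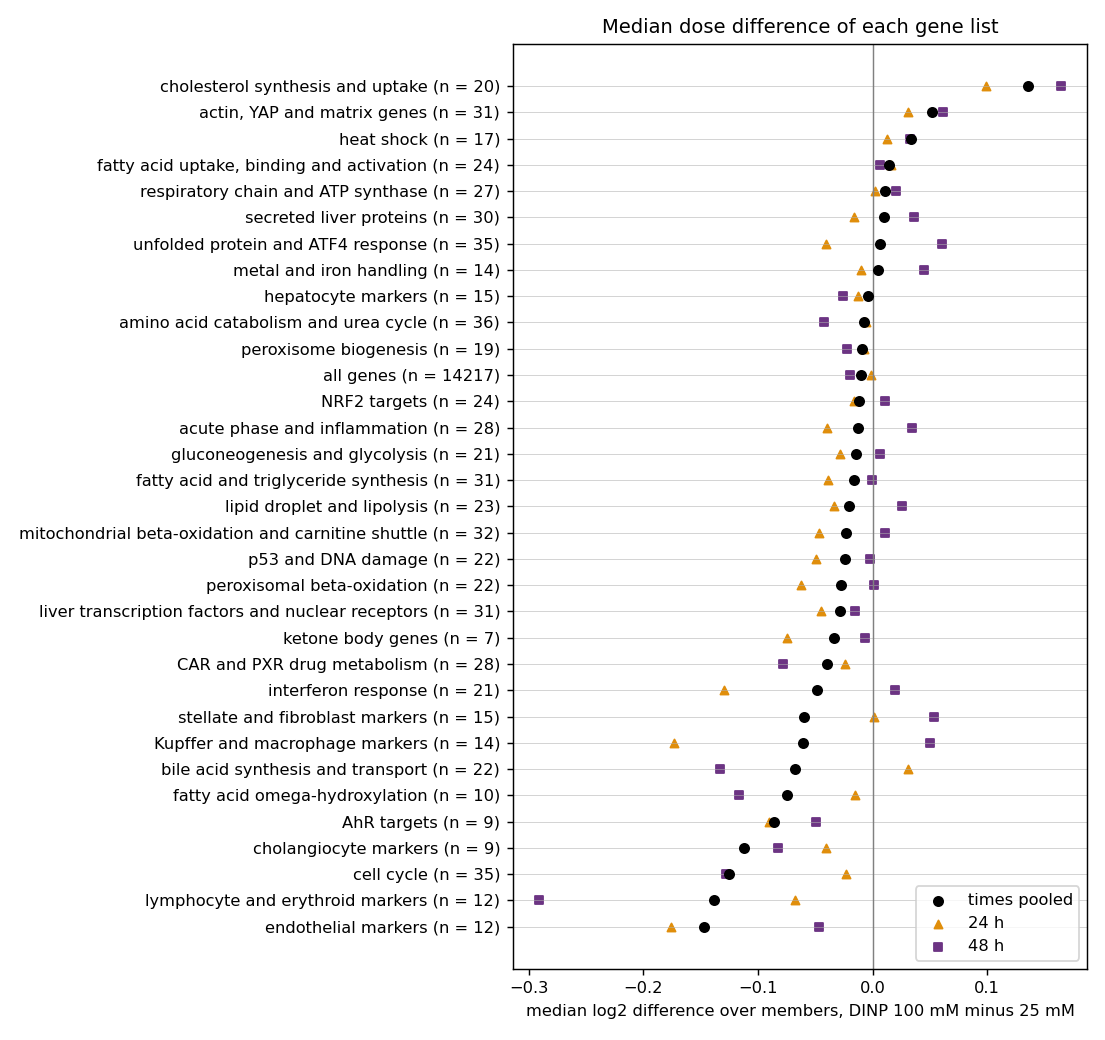
Median log2 difference of 100 mM minus 25 mM (x axis) for the 32 gene lists and for all genes (rows, with the number of measured members), with the times pooled, at 24 h and at 48 h. The median of the cholesterol list is 0.14, and centring each array on its median would add 0.06 to every pooled value, which turns list medians just below 0 positive.

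At each time alone, the dose comparison gave few calls. At 24 h, 3 probe sets were called higher at 100 mM (0.00966%) and 0 lower, and 1356 (4.37%) had an unadjusted p under 0.05. Beside Ccn2 they were those of Ubd, a ubiquitin-like protein induced by cytokines, and of the RNA helicase Ddx54. Ubd had 13.73, 13.56, 13.68, 13.66 and 13.80 at 100 mM, against 13.23, 13.22, 13.31, 13.32 and 13.44 at 25 mM, a difference of 0.38 ± 0.06 (limma adjusted p = 0.0409). The Ddx54 probe set, the dimmer of 2 for that gene and so named outside the rule, had a difference of 1.505 ± 0.25 (limma adjusted p = 0.0409) at a mean of 8.37 over the 20 arrays. No probe set was called at 24 h with median centring or without a variance trend. Leaving out 1 array gave 0 to 3 calls, and 3 in 1 of the 20 fits. Ubd stayed called in 3 of those 20 fits and Ddx54 in 2.

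At 48 h, 0 probe sets were called by limma (0.0%, smallest adjusted p 0.176), and 2197 (7.08%) had an unadjusted p under 0.05. The test of whether the dose difference itself changed between the times called 0 probe sets (0.0%, smallest adjusted p 0.669), with 1445 (4.65%) at an unadjusted p under 0.05.

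The dose differences at 24 h and 48 h, measured on different arrays, were weakly alike. Across the 10807 brighter genes, which are not independent of one another, Pearson's r was 0.107 and Spearman's rho 0.119. Of 482 brighter genes with an unadjusted p under 0.05 at 24 h, 307 (63.7%) had the same sign at 48 h. Of 828 such genes at 48 h, 530 (64.01%) had the same sign at 24 h, where the share over all brighter genes was 55.4%.

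**Figure D5:**
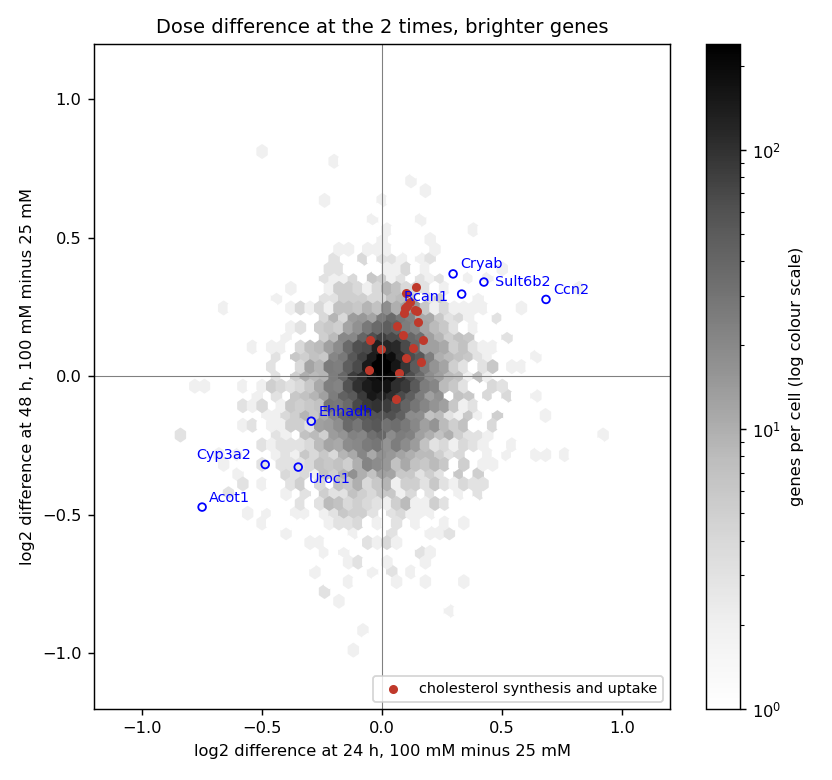
Log2 difference of 100 mM minus 25 mM at 24 h (x axis) and at 48 h (y axis) for the brighter genes, shaded by the number of genes on a log scale, with the cholesterol genes in red and named genes circled in blue. Most genes lie around 0 at both times with a Pearson's r of 0.107, and 27 genes lie outside the plotted range of 1.2 log2 units on either side.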

How the data were processed

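Biotin-labelled RNA of 30 cultures was measured on Affymetrix arrays. The authors deposited linear signal intensities, and the submitters' processing notes name MAS5 without a version. Their 2% trimmed mean was between 1500.65 and 1500.76 on every array, so they had been scaled before deposit. No detection calls were used here, and the number of arrays limits the precision.

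From these values log2(signal + 16) was computed, which understates differences of dim genes. The 57 control probe sets were dropped, leaving 31042, of which 20826 had 1 gene symbol, 436 several and 9780 none here. Symbols came from the platform annotation and were updated for 20758 probe sets through the Entrez ID to RefSeq's table of GRCr8. The brightest probe set stood for its gene (14217 genes, 4525 with several). A brighter gene had a mean in at least 1 dose group at or above the 40th percentile of all probe sets.

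Differences were fitted with limma 3.58.1 in R 4.3.3 (lmFit, eBayes with a trend), on the 20 treated arrays with dose and time as terms (17 residual degrees of freedom), on their 4 groups for the values at each time and for dose by time (16), and on 6 groups of all 30 arrays for each dose against the vehicle. P-values were adjusted by Benjamini-Hochberg over all probe sets. The fits were tested on simulated data in which 50 brighter probe sets were changed at each size. The pooled fit called 16% of those changed by 0.25 log2 units and 46% at 0.5. It called 92% at 1 and 100% at 2, with 5 false calls among unchanged probe sets. All sizes were changed in the same simulated set and adjusted together, so the larger changes eased the threshold for the smaller ones. Where few probe sets differ the threshold is stricter. These shares therefore overstate the chance of a call for small differences in the real comparison. Control measures were compared with exact permutation tests within times (63504 regroupings). Replicates carry no numbers in the labels and were numbered in sample order, which is the order of rounds of 6 array numbers in the titles. Deviations of same-round arrays had a mean r of 0.019 over 30 pairs, 1 of them above 0.1, against -0.005 for arrays of other rounds. No pairing was used in the main fit, and the round as a block was run as an alternative.

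The comparison, the 32 gene lists (696 of 774 members measured) and the fixed genes (28 of 31 measured) were chosen with earlier results of these data known, and list counts are descriptions. Named by rule were the 12 largest called rises and falls, up to 4 called members per list, the fixed genes, called genes at each time and in dose by time, and, where fewer than 5 genes were called in a direction, the 5 brighter genes of smallest p in it. Promoter sequences are RefSeq's, of GRCr8. Alternatives were the added constant, a brightness filter, quantile normalisation, median centring, the 30-array fit, dose by time in the model, no variance trend, array weights, the round as a block, and leaving out each array. None of these settings changed the probe set that stood for a gene. Other probe sets were compared with the brightest one by the sign of their difference.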

Additional observations from a re-analysis of the deposited data

Results flagged for a closer look

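Of 176 groups of 5 arrays tested for named genes and control measures, 8 held an array whose gap to the nearest of the others was over 0.71 of the group's range, where chance gives about 1 in 20. Values are log2 signals. Erg28 was at 13.8 in DINP 100 mM 24 h replicate 4 (others 13.971 to 14.031) and Uroc1 was at 12.36 in DINP 100 mM 48 h replicate 5 (others 12.529 to 12.597). DINP 100 mM 24 h replicate 1 had Car3 at 10.775 (others 11.28 to 11.404) and the 5S rRNA control at 11.536 (others 10.855 to 11.023). Among arrays at 25 mM, Cyp4a3 was 15.185 in the 48 h replicate 2 (others 15.486 to 15.53), Cyp3a2 was 13.022 in the 24 h replicate 3 (others 12.71 to 12.779) and Gdf15 was 9.306 in the 24 h replicate 4 (others 8.708 to 8.866). The log2 ratio of 3′ to 5′ Gapdh probe sets was 0.128 in DINP 25 mM 48 h replicate 5 (others 0.168 to 0.181).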

How the results depend on the processing

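Of 139 genes recomputed, each on its brightest probe set, 128 kept their direction in all settings run, 11 did not, and 7 were called in some setting. The number called higher was 0 as reported. It was 2 with median centring (Ccn2 and Sult6b2) and 2 with all 30 arrays (Ccn2 and Sult6b2). With dose by time in the model it was 1 (Ccn2). With the round of array numbers as a replicate block it was 2 (Cryab and Rcan1). The labels give no pairing, and 8 of 20 arrays correlated best with their own round. The number called higher ranged between 0 and 5 when 1 array was left out, and the number called lower between 0 and 1. At 24 h the 3 calls became 0 with median centring and 0 without a variance trend, and ranged between 0 and 3 without 1 array. At 48 h 1 probe set was called with all 30 arrays, and 0 to 1 without 1 array. Dose by time ranged between 0 and 1 likewise. The unadjusted count of cholesterol genes ranged between 12 and 15. That of actin, YAP and matrix genes was 9 with median centring and 3 without a variance trend, and 3 to 8 without 1 array. Differences near 0 turned sign with median centring for Cyp4a3 (0.0094), Cyp1a1 (0.019), Ccnd1 (0.019), Fgf21 (0.036), Tm7sf2 (0.041) and Srebf2 (0.045), and for Plin2 with quantile normalisation (-0.021) and array weights (-1.82e-05). Without 1 array the lowest and highest differences were -0.0049 and 0.0405 for Angptl4, -0.0152 and 0.021 for Plin2, -0.0368 and 0.1367 for Acmsd, -0.072 and 0.014 for Ccnd1, and -0.056 and 0.0404 for Fgf21. They were -0.0016 and 0.0985 for Mvk, -0.00092 and 0.0918 for Lss, -0.0441 and 0.0124 for Tm7sf2 and -0.0389 and 0.0262 for Srebf2. Of the 32 list medians, 15 moved by more than the spread between arrays, all with median centring. Median centring adds the same 0.06 to every pooled difference, so its changes of sign and of list medians follow from its construction. The cause of the other changes was not tested. Dim probe sets have the widest intervals.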
